A study of Mus musculus with 4 samples.

Results

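Twist1, Twist2, Snai1, Snai2, Zeb1 and Zeb2 encode the transcription factors best known for driving epithelial-to-mesenchymal transition, in which cells of a sheet loosen their junctions and become migrating mesenchyme. They were taken as every probe set whose platform annotation gives 1 of these 6 symbols and no other. This found 7 probe sets for all 6 genes, among 20380 probe sets with a single symbol for 12393 genes. Zeb1 has 2 of them and each other gene has 1.

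RNA came from 2 regions of wild-type C57BL/6 mouse hearts at embryonic days 10.5 to 11.0, the atrioventricular (AV) junction and the ventricular region, each dissected from about 80 hearts. After amplification from 230 ng of AV junction RNA and 250 ng of ventricular RNA, each region was read on 2 Affymetrix MOE430A arrays, named 1a and 1b, which makes 4 arrays. The arrays of a region share a replicate number, and nothing in the sources used here says that they came from separate pools, so p-values measure the spread between arrays, which may be technical. In tissue pooled this way, fewer cells of a type and less RNA per cell cannot be told apart.

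At this stage endocardial cells of the AV canal leave their sheet and invade the matrix beneath it, which turns it into the endocardial cushions from which valves and septa form, while the ventricular wall grows mostly as muscle. Signals of the BMP, TGF-beta and Notch pathways from the canal switch on Snail and Twist factors there. The Twist proteins are basic helix-loop-helix factors that bind E-boxes (CANNTG) as dimers with each other or with E proteins, and Id proteins block such dimers by taking up the E proteins. Snail and Zeb proteins are zinc finger repressors that bind CACCTG and its reverse complement CAGGTG in the promoters of junction genes, the E-cadherin gene Cdh1 being the classic target.

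The sequences below are 250 bases before the transcription start in RefSeq's GRCm38.p6 assembly, 5′ to 3′ on the gene's strand. They are given for the Twist paralogs, of which Twist1 passed as higher in the AV junction and Twist2 did not pass. Snai1 is printed because its window holds the Snail and Zeb motif. Krt18, a keratin gene on the list of junction and epithelial genes, was lower in the AV junction and holds the motif too. Capitals mark matches to CANNTG or to the TATA motif (TATAAA or its reverse complement TTTATA). Windows were found for 4 of the 6 factors, and those of Twist1, Twist2 and Snai1 are printed.
Twist1, chr12:33957421-33957670, plus strand: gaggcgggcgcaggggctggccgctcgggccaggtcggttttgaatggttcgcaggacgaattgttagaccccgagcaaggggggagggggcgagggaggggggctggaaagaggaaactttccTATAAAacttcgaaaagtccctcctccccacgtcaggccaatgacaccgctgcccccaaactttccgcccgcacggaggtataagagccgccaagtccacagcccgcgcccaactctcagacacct
Twist2, chr1:91801211-91801460, plus strand: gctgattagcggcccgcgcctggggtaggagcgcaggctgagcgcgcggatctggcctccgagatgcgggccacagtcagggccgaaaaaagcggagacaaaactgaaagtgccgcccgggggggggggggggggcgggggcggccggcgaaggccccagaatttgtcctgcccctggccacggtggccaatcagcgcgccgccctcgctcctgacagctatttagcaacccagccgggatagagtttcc
Snai1, chr2:167537945-167538194, plus strand: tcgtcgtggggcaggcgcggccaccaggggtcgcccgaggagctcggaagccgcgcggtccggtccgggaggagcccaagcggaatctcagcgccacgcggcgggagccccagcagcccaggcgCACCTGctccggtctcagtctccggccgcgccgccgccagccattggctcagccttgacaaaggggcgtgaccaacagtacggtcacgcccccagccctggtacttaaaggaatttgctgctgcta
Krt18, chr15:102027966-102028215, plus strand: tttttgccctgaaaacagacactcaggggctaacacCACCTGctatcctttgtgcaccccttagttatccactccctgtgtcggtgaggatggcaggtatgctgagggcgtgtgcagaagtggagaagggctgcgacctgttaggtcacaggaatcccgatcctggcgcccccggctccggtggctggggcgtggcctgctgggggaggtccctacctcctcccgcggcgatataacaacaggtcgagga
Both Twist windows are rich in CpG pairs, with 18 in Twist1 and 23 in Twist2, where the median of 32851 promoter windows is 6. Neither holds CANNTG, which 66.2% of all windows hold. The Twist1 window has TATAAA, starting 126 bases before the transcription start, and the Twist2 window holds neither TATAAA nor its reverse complement. Of all windows 12.4% hold one or the other, at any position. The 4 windows of Zeb2 hold no CANNTG. The Snail and Zeb motif, CACCTG or CAGGTG, occurs in 17.2% of all windows. These letter matches describe the windows and do not show that a factor binds there.

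Intensities are given after scaling each array to a trimmed mean of 500, and a level of one probe set cannot be set against that of another. As a background, the brightest of 27 control probe sets for Bacillus subtilis, whose sequences are foreign to the mouse, read 58.6 and 52.6 on the AV junction arrays, against 97.9 and 104.3 on the ventricular arrays. The ventricular controls read higher. An equal level can thus count as above the controls in the AV junction and below them in the ventricular region. Tissue identity followed the labels: Tbx2, Tbx3 and Bmp2, which mark AV canal muscle, summed to 2957 and 2750 on the AV junction arrays, against 405.7 and 341.1 on the ventricular arrays. Myl2, Nppa, Nppb, Irx4, Hey2 and Smpx of ventricular muscle summed to 18600 and 19860 on the AV junction arrays, against 59000 and 65670 on the ventricular arrays. A positive log2 fold means a higher level in the AV junction. Folds were taken from limma on log2 of scaled intensity plus 50 over all 13403 probe sets with a mean of at least 100, and adjusted p-values are Benjamini-Hochberg over all of these. The threshold for passing was an adjusted p of 0.05.

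Of the 6 factors, Twist1 and Zeb1 were higher in the AV junction and the other 4 did not pass. Among the 7 probe sets, 6 reached the mean needed for the test, 2 of these were higher and 0 lower. Over all 13403 probe sets tested, 7.24% were higher and 6.58% lower by the same rule, and 13.8% passed in either direction. Of all calls 52.4% were higher, and 78.9% with median scaling of the arrays, which moved the median log2 fold of all probe sets by 0.16, to 0.09, against −0.07. With only 6 probe sets, a count of 2 is described here and not set against that share. The dim second probe set of Zeb1 was not tested, and Twist1 reached the mean through its AV junction arrays alone.

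**Figure D1:**
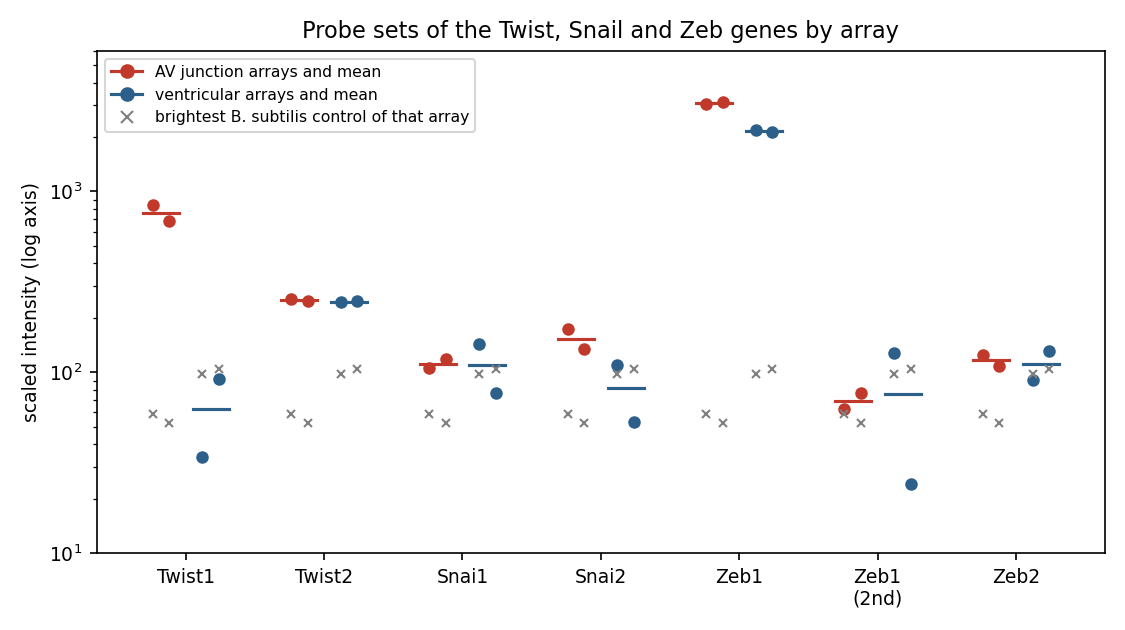
Scaled intensity (log axis) of each probe set of the 6 genes, with the AV junction arrays in red on the left and the ventricular arrays in blue on the right of each gene; points are arrays, bars are means of 2 arrays, and grey crosses are the brightest Bacillus subtilis control of that array. The ventricular arrays of Twist1 lie below their control, at 33.9 and 91.9, while its AV junction arrays read 846.8 and 682.4.

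Twist1, which drives growth and migration of cushion mesenchyme in chick, read 846.8 and 682.4 on the AV junction arrays, against 33.9 and 91.9 on the ventricular arrays. Both ventricular arrays lay below the brightest control of their array, at 0.35 and 0.88 times its level, while the AV junction arrays lay at 14.44 and 12.97 times. Regions did not overlap, which held for 61.2% of all probe sets tested (26.1% higher and 35.1% lower in the AV junction). Means were 764.6 ± 116 in the AV junction, against 62.9 ± 41 in the ventricular region (SD, n = 2 arrays each). The mean of its AV junction arrays lay 7.52-fold above the controls of the ventricular arrays, which serves as a bound on the fold. This bound uses no pseudocount and makes no allowance for the spread between arrays. The adjusted p in limma was 0.00113, for a probe set that reached the mean needed for the test through its AV junction arrays alone. With no filter the adjusted p in limma was 0.0104. Both set the AV junction arrays against ventricular values at background. Since the ventricular side is not above background, the fitted log2 fold of 2.89 (SE 0.27) is not a measured size: it was 3.74 with a pseudocount of 1 and 1.88 with one of 200. With each of the 4 arrays left out in turn the fitted log2 fold of Twist1 ran from 2.51 to 3.27.

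Twist2, the paralog of Twist1 known from dermis and bone precursors, read nearly the same on all 4 arrays: 253.3 and 247.4 in the AV junction, and 244.1 and 247.8 in the ventricular region. All 4 arrays lay above their controls, by 2.38 to 4.7 times, and the regions overlapped. Means were 250.3 ± 4.22 in the AV junction, against 246 ± 2.67 in the ventricular region (SD, n = 2 arrays each). The log2 fold was 0.02, with a 95% interval from −0.38 to 0.42 and an adjusted p of 0.943 (limma). In fold terms the interval runs from 0.77 to 1.34. On the same limma scale the interval of Twist1, from 4.79 to 11.5, lies above it, though its size depends on the pseudocount.

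Within an array, the log2 ratio of Twist1 to Twist2, centred on the mean of the 4 arrays, was 1.57 and 1.30 in the AV junction, against −1.81 and −1.07 in the ventricular region. Both AV junction arrays lay above both ventricular arrays. The ventricular ratios rest on Twist1 values below the controls, so no size is given for the difference. It was not tested, and an exact two-sided permutation of 2 arrays against 2 cannot give a p under 0.333.

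Snai1, the repressor of Cdh1 that is needed for mesoderm to leave the epithelium at gastrulation, read 105.2 and 118 on the AV junction arrays, against 144.2 and 76.5 on the ventricular arrays. The ventricular arrays lay on either side of the AV junction arrays, and 1 of them, 1b, was below its control. Its log2 fold was 0.04 (95% interval −0.64 to 0.72, adjusted p = 0.932, limma). That sign rested on single arrays: the log2 fold was −0.27 without ventricular array 1b, −0.01 without AV junction array 1b, and 0.10 without AV junction array 1a. Without ventricular array 1a its mean fell below the 100 needed for the test.

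Snai2, also called Slug, a Notch target in cushion endocardium, read 172.6 and 134.1 on the AV junction arrays, against 109.6 and 53.3 on the ventricular arrays, of which 1b was below its control. Regions did not overlap and both AV junction arrays were the higher ones, as in 26.1% of all probe sets tested. The log2 fold of 0.66 did not pass, with a 95% interval from −0.04 to 1.35 and an adjusted p of 0.18 (limma). It was 0.34 without ventricular array 1b and 0.97 without ventricular array 1a. The log2 ratio of Snai2 to Snai1 within an array, centred as above, was 0.50 and 0.11 in the AV junction, against −0.30 and −0.31 in the ventricular region. On ventricular array 1b both genes lay below the control, and this ratio was not tested. Snai3, the third Snail gene, and the related Scratch gene Scrt1 lay below their controls on all 4 arrays.

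Zeb1, a zinc finger and homeodomain repressor of epithelial genes, lay far above the controls of all 4 arrays on its first probe set. It read 3028 and 3139 on the AV junction arrays, against 2188 and 2126 on the ventricular arrays, 20.38 to 59.65 times the controls. Arrays of a region were close to each other and the regions did not overlap. Means were 3083 ± 78.7 in the AV junction, against 2157 ± 43.8 in the ventricular region (SD, n = 2 arrays each), a 1.42-fold difference. Its log2 fold of 0.51 had an SE of 0.09 and an adjusted p of 0.0145 (limma). Zeb1 missed the threshold without AV junction array 1b (adjusted p = 0.0564), ventricular array 1a (0.0645) or ventricular array 1b (0.0712), while its log2 fold stayed between 0.48 and 0.53 with each of the 4 arrays left out in turn. Its second probe set read 62.3 and 77.1 on the AV junction arrays, against 128.1 and 24.2 on the ventricular arrays, overlapped between regions and was too dim to test.

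Zeb2, which binds Smad proteins and acts in the neural crest, read 125.3 and 107.9 on the AV junction arrays, against 90.9 and 131.1 on the ventricular arrays. Its regions overlapped, and ventricular array 1a lay below its control. The log2 fold was 0.06 (95% interval −0.54 to 0.66, adjusted p = 0.896, limma), with −0.02 without AV junction array 1a and −0.12 without ventricular array 1a. Zeb1 and Zeb2 had a centred log2 ratio of 0.12 and 0.32 in the AV junction, against −0.02 and −0.42 in the ventricular region, a difference of 0.45. This difference rests in part on the Zeb2 value below its control on ventricular array 1a, and it was not tested.

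**Figure D2:**
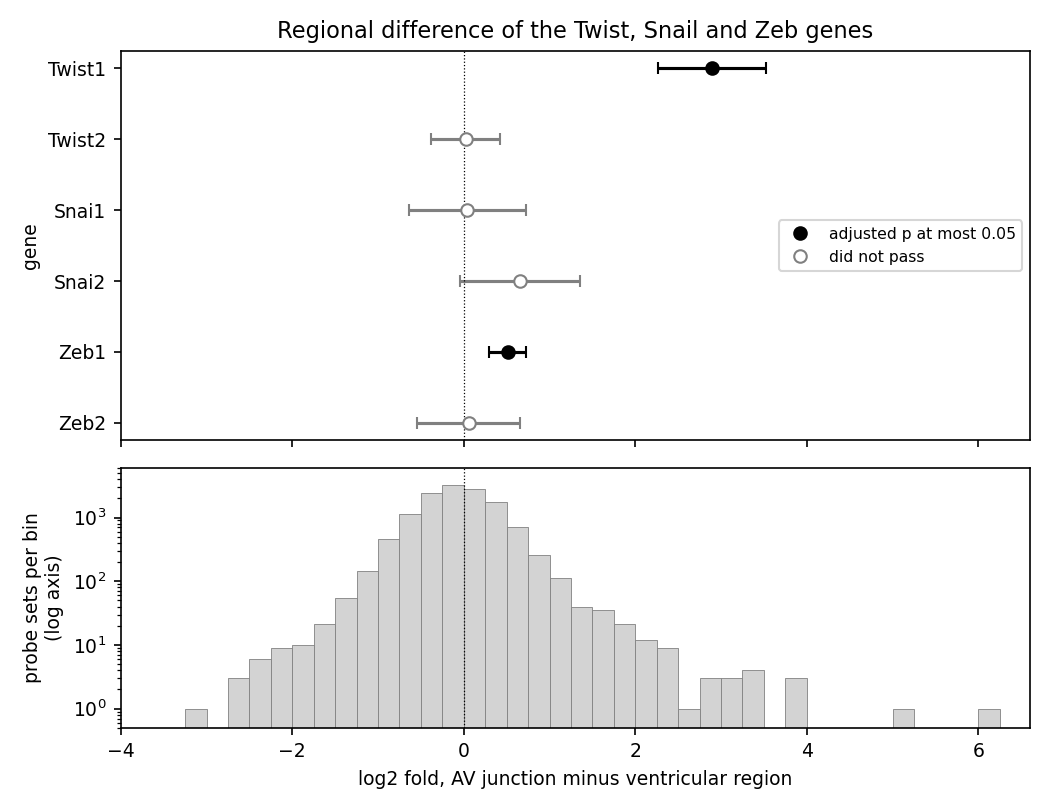
Upper panel, log2 fold (AV junction minus ventricular region) of the 6 tested probe sets with 95% intervals from limma, filled where the adjusted p is at most 0.05; lower panel, the number of all 13403 tested probe sets per log2 fold bin of 0.25 (log axis). Twist1 is drawn at its fitted value of 2.89, which depends on the pseudocount because its ventricular arrays lie below the controls. Zeb1 at 0.51 has a narrow interval above 0, and the intervals of Twist2, Snai1, Snai2 and Zeb2 cross 0.

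By fitted size on the limma scale Twist1 came first, with a fold interval from 4.79 to 11.5. This lay above the upper limits of the fold intervals of the other 5, the highest of which was 2.55 for Snai2. The fitted sizes of Twist1 and Snai2 depend on the pseudocount. The bound of 7.52-fold for Twist1 uses no pseudocount and is not on this scale. The log2 folds of these 5 were 0.66 for Snai2, 0.51 for Zeb1, 0.06 for Zeb2, 0.04 for Snai1 and 0.02 for Twist2, and their 95% intervals overlap one another.

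The genes whose pattern over the 4 arrays lay nearest to that of Twist1, out of 8409 others, were Shisa2, Cav1, Hdc, Car3 and Vsnl1. Likeness is the distance between centred log2 profiles over the 4 arrays, and it was 0.43 for Shisa2 and 0.689 for Vsnl1. The ventricular values of Twist1 that enter it lie below the controls. Shisa2 read 1136 and 1015 in the AV junction, against 54.3 and 87.9 in the ventricular region, and was at least 10.6-fold higher. The caveolin gene Cav1 read 3621 and 3122 in the AV junction, against 382.9 and 423.3 in the ventricular region, a log2 fold of 2.91. Around Zeb1 lay Pcbp1, Pnp, E2f5, Nrep and Nipbl, at distances of 0.025 to 0.033 and with log2 folds of 0.49 to 0.52. With 4 arrays such profiles hold little beyond the region and the size of its difference.

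**Figure D3:**
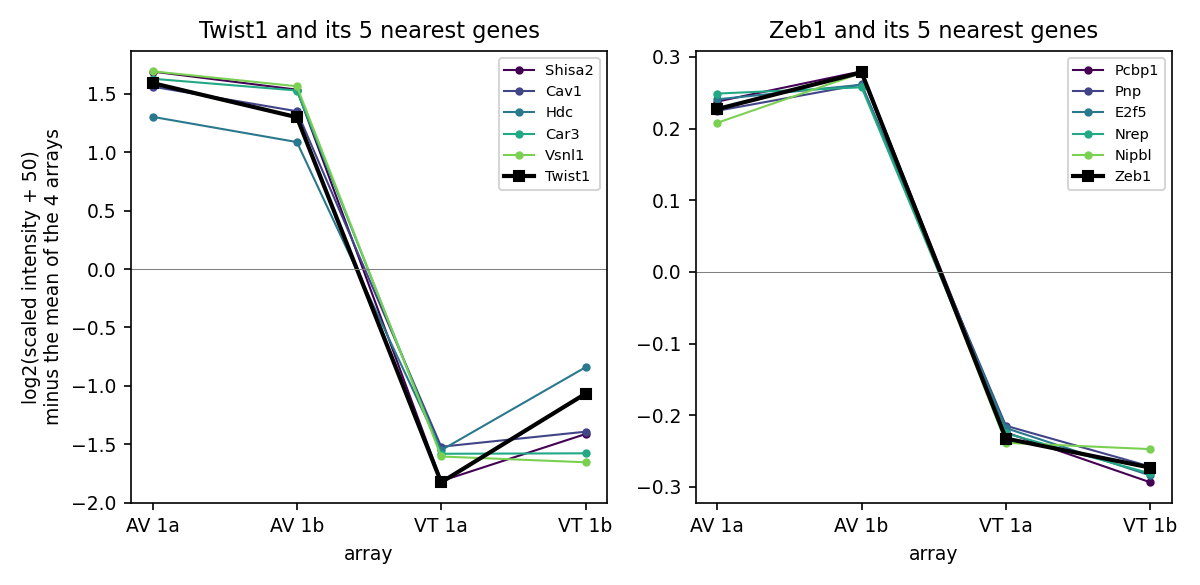
Log2 of scaled intensity plus 50, minus the mean of the 4 arrays, for Twist1 (left) and Zeb1 (right) in black and their 5 nearest genes in colour, by array; lines join the arrays of a gene and carry no order. Twist1 and its neighbours are above 1 on the AV junction arrays and mostly below −1 on the ventricular ones, with Hdc on ventricular array 1b the exception, and the Zeb1 group stays within 0.033 of Zeb1 in distance.

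Most dimer partners and Id inhibitors of the Twist factors were higher in the AV junction. Of 9 listed genes 8 were tested, 6 were higher, 1 was lower and 1 did not pass, with a median log2 fold of 0.75. Over all 8410 genes, each by its brightest probe set, 8.47% were higher and 6.54% lower and the median log2 fold was −0.06. The list holds both partners and inhibitors. The E protein gene Tcf12, whose product pairs with Twist1, read 3565 and 3192 in the AV junction, against 1734 and 1637 in the ventricular region (log2 fold 0.98, adjusted p = 0.00176, limma). Tcf4, another E protein gene, rose by 0.81 (adjusted p = 0.00927), while a second probe set of Tcf12 (0.34) and 2 more of Tcf4 (0.51 and 0.04) did not pass. The third, Tcf3, did not pass (−0.04). Among inhibitors, Id3 read 1750 and 1864 in the AV junction, against 684.9 and 658.7 in the ventricular region, and rose by 1.36 and Id2 by 0.94 (adjusted p = 0.000638 and 0.00299). Id1 (0.62) and Id4 (0.69) also passed, and Hand1, a partner of Twist1 in limb and heart, was the 1 lower gene (−0.76, adjusted p = 0.0491); these 3 were named after their values were seen. Other probe sets of Id4 gave 2.08 and 1.86 and also passed (adjusted p = 0.000397 and 0.00137), whereas those of Id2 gave 1.94 (passed, adjusted p = 0.00683) and −0.09 (did not pass). The Id4 probe set at 1.86 read 112 and 87.5 in the ventricular region, of which 1b lay below its control. Its ventricular mean of 99.8 was under the 100 needed for the test. The Id2 probe set at 1.94 read 22.5 and 22.1 in the ventricular region, below the controls. It reached the mean through its AV junction arrays alone, so its fold is no measured size. With 1 array left out 4 or 5 genes were higher, and Id2, Id3, Tcf12 and Tcf4 passed each time. Id1 and Id4 missed without any 1 array, with adjusted p up to 0.159 and 0.125. Hand1 missed without AV junction array 1a, AV junction array 1b or ventricular array 1b, with adjusted p up to 0.208. Hand2 lay below its controls on all 4 arrays.

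Signals known to switch on these factors were in part higher. Of 21 listed genes 17 could be tested: 9 passed as higher, 0 as lower and 8 missed, with a median log2 fold of 0.67, where all genes gave 8.47% higher and 6.54% lower. Bmp2, the BMP ligand that is also on the list of AV canal muscle markers, read 1766 and 1431 in the AV junction, against 139.1 and 67.4 in the ventricular region, of which 1b lay below its control (log2 fold 3.46, adjusted p = 0.00038, limma). Tgfb2, the TGF-beta ligand of the cushions, read 2565 and 2028 in the AV junction, against 475.4 and 441.4 in the ventricular region (2.20, adjusted p = 0.000305), with 0.58 and 0.77 and no pass on its 2 other probe sets. Hmga2, a chromatin protein that works with Smads on the Snai1 and Twist1 genes in mammary epithelial cells, rose by 1.00 (adjusted p = 0.00272), with 0.29 and 0.30 and no pass on its others. The BMP receptor gene Acvr1 rose by 0.93 (adjusted p = 0.0143) and missed without AV junction array 1b (0.063) or ventricular array 1a (0.0656). Its second probe set gave −0.35 and did not pass. Notch1, whose activity raises Snai2 in endocardium, did not pass (0.38, adjusted p = 0.146, and −0.64 on its other probe set), nor did Gata4 (−0.04) and Hif1a (−0.03). The count of higher genes was 5 without ventricular array 1b and 6 without each of the other arrays, and 4 genes passed in every such fit.

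Other transcription factors of mesenchyme were in part higher. Among 16 listed genes 12 could be tested: 6 passed as higher, 0 as lower and 6 missed, with a median log2 fold of 0.85 (all genes: 8.47% higher and 6.54% lower). Prrx1, a homeobox gene of limb and cushion mesenchyme, read 378.3 and 383.1 in the AV junction, against 55.0 and 7.04 in the ventricular region, below both controls there, and was at least 3.77-fold higher (adjusted p = 0.00384, limma). Like Twist1, this probe set reached the mean needed for the test through its AV junction arrays alone. The other probe sets of Prrx1 were too dim to test and overlapped between regions. Meox1 rose by a log2 fold of 1.27, Msx2 by 1.22 and Msx1 by 1.16 (adjusted p = 0.00968, 0.0152 and 0.00775). In the ventricular region Meox1 read 96.89 and 107.7, and Msx2 read 75.1 and 119.4. For each of these genes ventricular array 1a lay below its control of 97.9. The ventricular mean of Msx2, 97.25, was under the mean needed for the test. The folds of Meox1 and Msx2 thus rest in part on values near the controls. Msx1 had a dimmer probe set at −0.65 that did not pass. Meox1 missed without AV junction array 1b (adjusted p = 0.0579), and Msx2 without AV junction array 1a, AV junction array 1b or ventricular array 1a (up to 0.0674). Higher genes numbered 3 without AV junction array 1b, 4 without ventricular array 1a, 5 without AV junction array 1a and 7 without ventricular array 1b.

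Mesenchymal genes that epithelial-to-mesenchymal transition brings up were higher in part. Of 24 listed genes on the array 21 were tested, 9 were higher, 1 was lower and 11 did not pass, with a median log2 fold of 0.55, beside 8.47% higher and 6.54% lower over all genes. Pdgfra, a receptor of mesenchyme, read 2667 and 1128 in the AV junction, against 101.2 and 191.5 in the ventricular region (log2 fold 3.23, adjusted p = 0.00269, limma). Its AV junction arrays were far apart but both above both ventricular arrays, and it passed without any 1 array. Postn, a matrix protein of the cushions, read 2385 and 2180 in the AV junction, against 442.9 and 460.1 in the ventricular region. It rose by 2.22, the collagen gene Col3a1 by 1.26 and the cushion proteoglycan gene Vcan by 1.15 (adjusted p = 0.000109, 0.000638 and 0.000573). Tagln, an actin-binding protein of smooth muscle and early heart muscle, was the 1 lower gene (−0.98, adjusted p = 0.00637), named after its value was seen. Vim, the intermediate filament gene used most often as a mesenchymal marker, did not pass on its brightest probe set (−0.08), whereas 2 others gave 0.53 and 0.39 and passed (adjusted p = 0.0103 and 0.0496), which was also seen before it was named. Cdh2, the cadherin that replaces Cdh1 and is also made by heart muscle, did not pass (0.47, adjusted p = 0.0992). With 1 array left out 6 to 8 genes were higher, and 6 passed in every such fit.

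Junction and epithelial genes that Snail and Zeb factors are known to repress went both ways. Of 24 listed genes on the array only 11 lay above the controls on all 4 arrays, 5 lay below on all 4, and 12 were tested. Cdh1 read 16.8 and 64.0 in the AV junction, against 4.69 and 67.8 in the ventricular region, above the control on AV junction array 1b alone, and was not tested. Epcam, Muc1 and Esrp1 were likewise too dim to test. Of the 12 in the test, 2 passed as higher, 4 as lower and 6 missed, with a median log2 fold of −0.26, beside 8.47% higher and 6.54% lower over all genes. Krt19 read 252.7 and 226.9 in the AV junction, against 543.5 and 411.2 in the ventricular region (log2 fold −0.85, adjusted p = 0.023, limma). Krt18 read 478.5 and 502.8 in the AV junction, against 807.6 and 777.1 in the ventricular region (−0.64, adjusted p = 0.0176). The other 2 lower genes, named after their values were seen, were the desmosome gene Pkp2 (−0.63, adjusted p = 0.00562) and the polarity gene Crb3 (−0.59, adjusted p = 0.0435). Krt19 is also on the list of epicardial markers, and Pkp2 is abundant in heart muscle. The 7 cardiac muscle markers summed to 78260 and 77230 in the AV junction, against 98260 and 103500 in the ventricular region. Singly, 0 of the 7 were higher, 2 were lower and 5 did not pass, beside 8.47% higher and 6.54% lower over all genes. Their median log2 fold was −0.18, and their part in the differences of the junction and epithelial genes was not tested. The tight junction scaffold gene Tjp1 rose by 0.89 (3889 and 4043 in the AV junction, against 2182 and 2048 in the ventricular region, adjusted p = 0.00177) and the junction adhesion gene F11r by 0.86 (adjusted p = 0.0113). Cdh5 of endothelial junctions did not pass (0.22). Leaving out array 1a of either region left 1 lower gene and leaving out array 1b of either left 2, and only Pkp2 passed each time. Krt18 passed only without AV junction array 1b and Krt19 only without ventricular array 1b (adjusted p up to 0.0921 and 0.128 otherwise), and Crb3 missed each time (up to 0.192). Higher genes numbered 1 without AV junction array 1b or ventricular array 1a, and Tjp1 passed each time.

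Promoter windows were at hand for 17 of these 24 junction genes, and 11 of the 17 hold CACCTG or CAGGTG in at least 1 window, against 19.4% of all 27025 genes with a window. The list was drawn from genes known as targets of these repressors, so this share describes the choice of genes. Krt18 and Crb3, both lower in the AV junction, hold the motif, as the Krt18 window above shows, but so does F11r, which was higher, and Krt8, which did not pass. Tjp1, which was higher, does not hold it.

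Co-repressors that Snail and Zeb proteins recruit, and enzymes that set the stability of Snail and Twist proteins, mostly did not pass. Among 13 co-repressor genes in the test, 2 passed as higher and 1 as lower and 10 missed (median log2 fold 0.29). These are 15.4% higher and 7.69% lower, beside 8.47% and 6.54% over all genes, and with so few genes nothing is read from the difference. Ajuba, a partner of Snail proteins, rose by 0.67, and the demethylase gene Kdm1a by 0.46 (adjusted p = 0.0409 and 0.0431, limma), while Sin3a fell by 0.67 (adjusted p = 0.0339). A second probe set of Kdm1a gave 0.32 and did not pass. Neither Ctbp1 (0.31) nor Ctbp2 (0.36), the co-repressors of Zeb proteins, passed. Among 11 stability genes in the test, 2 passed as higher, 0 as lower and 9 missed (median log2 fold 0.30), beside 8.47% higher and 6.54% lower over all genes, and nothing is read from this count either. The 2 higher genes were the ubiquitin ligase gene Fbxw7 (0.64, adjusted p = 0.0341) and the phosphatase gene Ctdsp2, whose product acts on Snail (0.59, adjusted p = 0.0318), and second probe sets gave −0.04 for Fbxw7 and −0.17 and −1.11 for Ctdsp2. That last one passed as lower (adjusted p = 0.0409), so the probe sets of Ctdsp2 disagree. Leaving out any 1 array ended the calls of Kdm1a (highest adjusted p 0.161), Sin3a (0.138) and Fbxw7 (0.126). Ajuba passed only without ventricular array 1b and Ctdsp2 only without AV junction array 1b (up to 0.164 and 0.148 otherwise).

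**Figure D4:**
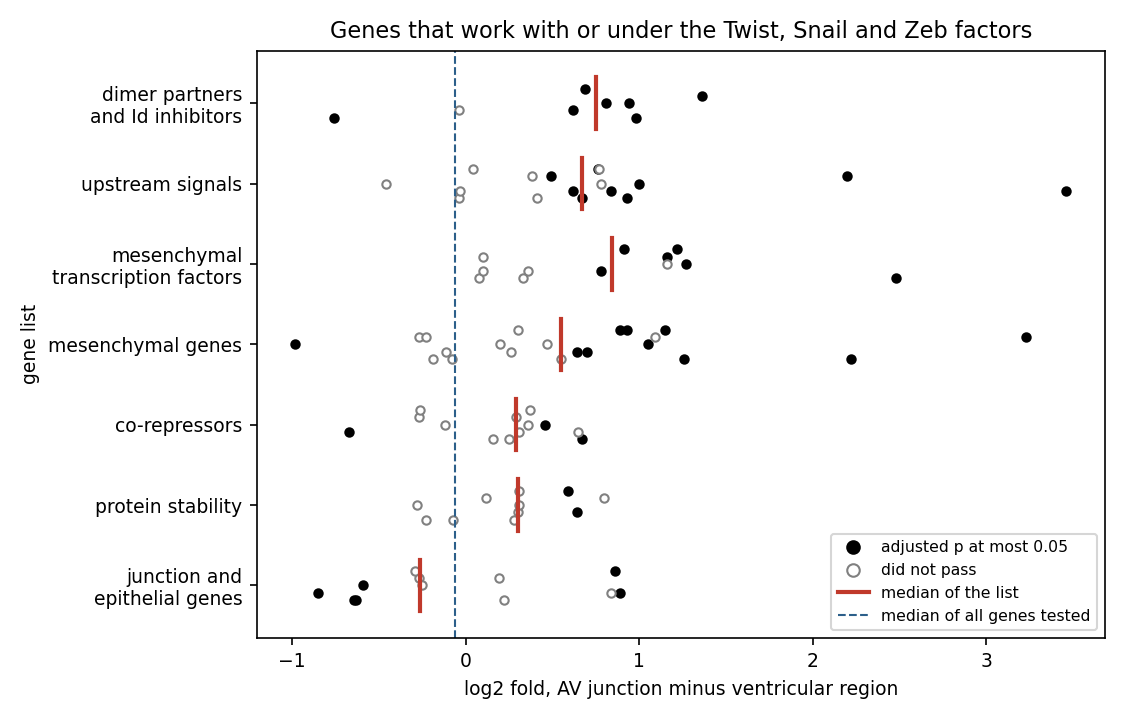
Log2 fold (AV junction minus ventricular region) of each tested gene of the 7 pathway lists, filled where the adjusted p is at most 0.05, with the list's median as a red line and the median of all 8410 genes as a dashed line. The medians run from 0.85 for mesenchymal transcription factors to −0.26 for junction and epithelial genes, against −0.06 for all genes.

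Summed markers of other cell types moved with region in the same arrays, and their part in the differences of Twist1 and Zeb1 was not tested. A sum follows its brightest genes, and single markers can go the other way. Of 7 hepatic markers on the array 6 lay above the controls on both AV junction arrays and 3 on both ventricular arrays, and they summed to 7259 and 6937 in the AV junction, against 716.1 and 653 in the ventricular region. Since the ventricular controls read higher, such counts above the controls do not compare the regions at an equal threshold. Afp led this sum at 5214 and 4665 in the AV junction, against 17.1 and 18.8 in the ventricular region, below the controls there. Erythroid markers, of which 7 of 8 lay above the controls on all 4 arrays, summed to 18400 and 18210 in the AV junction, against 47110 and 52370 in the ventricular region. The 9 endocardial and endothelial markers summed to 4181 and 4703 in the AV junction, against 2952 and 3228 in the ventricular region, with Pecam1 and Tie1 below the controls on all 4 arrays. Of 7 tested, 2 were higher, 0 were lower and 5 did not pass, with log2 folds from −0.71 to 1.38. Over all genes 8.47% were higher and 6.54% lower. The 5 leukocyte markers, all above the controls on both AV junction arrays and 3 on both ventricular arrays, summed to 2887 and 2935 in the AV junction, against 1727 and 1871 in the ventricular region. Single leukocyte markers went both ways: of 3 tested, 1 was higher, 1 was lower and 1 did not pass, with log2 folds from −1.37 to 1.11. Epicardial markers, 5 of 6 above the controls on all 4 arrays, summed to 2072 and 2301 in the AV junction, against 2779 and 2942 in the ventricular region, with Msln below the controls on all 4 arrays. Of 5 tested epicardial markers, 0 were higher, 1 was lower and 4 did not pass. Neural crest, glial and neuronal markers overlapped between regions, with sums of 754.3 and 925.4 in the AV junction, against 782.5 and 768.4 in the ventricular region, and 3 of 6 lay above the controls on both AV junction arrays and 2 on both ventricular arrays. Foxd3 of early neural crest was below the controls on all 4 arrays. Sox10 did not pass (0.02).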

How the data were processed

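Total RNA of dissected tissue was amplified with the RiboAmp HS kit and hybridised to Affymetrix MOE430A arrays, per the labels' protocols. The deposited values are 1 linear intensity per probe set and array, which MAS5 gave the authors (tool named in the submitters' processing notes, per the labels); a version and detection calls are not given in the sources used here. All 4 arrays carry the same chip lot and day and a different fluidics module each, per the experiment records.

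Here the trimmed mean (2%) of all 22626 non-control probe sets was set to 500 on every array. Probe sets with a mean of at least 100 (13403) were fitted as log2 of intensity plus 50 with limma 3.58.1 (eBayes with trend, R 4.3.3), and region was the single term. Of the 22626 probe sets 20380 have 1 symbol, 691 several and 1555 none. The brightest tested probe set by mean log2 intensity stands for a gene of a list. Folds against a region below the brightest Bacillus subtilis control on both arrays are bounds. These bounds use no pseudocount and make no allowance for the spread between arrays. The members, the lists, the background and the rules were chosen with earlier results of these data known. Named genes are the members, the 4 largest changes that passed in each list (all, if fewer passed), and the 5 nearest profiles to Twist1 and Zeb1. Others were named after their values were seen: Id1, Id4, Hand1, Hand2, Tcf3, Notch1, Gata4, Hif1a, Tagln, Vim, Cdh1, Cdh2, Cdh5, Epcam, Muc1, Esrp1, Pkp2, Crb3, Krt8, Ctbp1 and Ctbp2. The fit was tested on simulated data. These were independent arrays with variances drawn from the fitted model, so they do not speak to arrays that may share a pool. Alternatives were another scaling, pseudocount, floor or variance model, a replicate block, each array left out, and for lists the choice of probe set. Promoter windows are RefSeq's (GRCm38.p6); members and list genes were matched by symbol. Figures were drawn with matplotlib 3.10.9.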

Additional observations from a re-analysis of the deposited data

How the results depend on the processing

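Twist1 had fitted log2 folds, which are no bound, from 1.88 (pseudocount of 200) to 3.74 (pseudocount of 1) under the 13 alternatives. It passed with every other scaling, pseudocount, floor and variance model and with the replicate block. Its ventricular arrays lie below the controls, so these passes set the AV junction arrays against background. Zeb1 had log2 folds of 0.45 (quantile normalisation) to 0.66 (median scaling) and passed under 9 of 13. It missed with eBayes without trend (0.51, adjusted p = 0.0803, limma) and without each of 3 arrays, so that 1 or 2 probe sets were higher with an array left out (0 lower each time). Snai1, Snai2, Twist2 and Zeb2 passed under 0 alternatives. With an array left out the log2 fold of Snai1 ran from −0.27 to 0.10, with −0.01 without AV junction array 1b, and that of Zeb2 from −0.12 to 0.24, with −0.02 without AV junction array 1a; Zeb1 ran from 0.48 to 0.53. Over all probe sets, 970 higher and 882 lower calls became 326 and 343 with eBayes without trend, 580 and 431 with no filter, and 1714 and 459 with median scaling. With an array left out they were 402 to 534 higher and 254 to 522 lower. The cause was not tested.

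The samples share only a letter (1a, 1b): deviations of same-lettered arrays from their region's mean correlated at 0.056 over probe sets. The replicate block gave 1344 higher and 1375 lower probe sets, kept the calls of Twist1 and Zeb1, and gave 4 higher co-repressors and 2 lower mesenchymal genes.

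List counts moved as follows. With eBayes without trend there were 1 higher factor, 0 higher and 0 lower co-repressors, 3 higher and 0 lower dimer partners, 0 lower junction genes, 1 higher stability gene and 4 higher signals. With median scaling there were 6 higher and 0 lower co-repressors, 0 lower dimer partners and 4 higher stability genes. With no filter there were 0 higher and 0 lower co-repressors, 0 lower dimer partners and 0 higher stability genes. Quantile normalisation gave 1 higher co-repressor and 0 lower dimer partners, and a pseudocount of 200 also gave 0 lower dimer partners. A floor of 300 or the values as deposited left 3 higher mesenchymal transcription factors, since fewer genes were tested. Averaging the probe sets of each gene gave 0 higher stability genes. Without probe sets ending in _x_at and _s_at there were 0 lower co-repressors and 1 higher and 1 lower stability gene. With an array left out, higher and lower counts were 0 to 1 and 0 for co-repressors, 4 to 5 and 0 to 1 for dimer partners, 1 to 2 and 1 to 2 for junction genes, 6 to 8 and 1 for mesenchymal genes, 3 to 7 and 0 for mesenchymal transcription factors, 0 to 1 and 0 for stability genes, and 5 to 6 and 0 for signals. Signals near the controls, with 1 ventricular array of Snai1, Snai2 and Zeb2 below them, limit what these arrays can show for those genes.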
